A study of Mus musculus with 12 samples.

Results

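Kupffer cell markers are the genes by which the resident macrophages of the liver are recognised in a whole-liver sample. The 10 genes Cd209f, Clec4f, Timd4, Vsig4, Marco, Cd5l, Adgre1, Csf1r, Cd163 and Cd68 were taken by name, each from the probe sets whose platform annotation names that gene alone. All 10 were found, each with 1 probe set, among 34760 probe sets on the array, of which 21640 name a single gene and together cover 19937 genes. The rule uses no measured value, but the genes were proposed with earlier results of these data known.

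Kupffer cells line the liver sinusoids, where they take up bacteria, ageing red blood cells and apoptotic cells from the portal blood. They are seeded by fetal precursors, largely maintain themselves by division, and depend on the receptor for colony-stimulating factor 1. Their surface carries lectins, scavenger receptors, a complement receptor and a phosphatidylserine receptor, and several of these genes are expressed in the adult liver almost only by Kupffer cells, while others are shared with macrophages of all tissues.

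Livers came from 12 male C57BL6/JJmsSlc mice, each hybridised to its own Affymetrix Mouse Gene 1.0 ST array. The 12 fell into 4 groups of 3: Atf7-/- mice conceived by in vitro fertilization (IVF), Atf7-/- mice from natural mating, wild-type (WT) mice conceived by IVF, and WT mice from natural mating. Atf7 encodes a stress-responsive transcription factor that binds cAMP response elements, and the mutation is carried in every tissue, so a difference in a Kupffer cell gene need not arise in that cell. IVF embryos were transferred to pseudopregnant ICR females, so IVF and gestation in a recipient cannot be told apart. Mutant mice had mutant parents and WT mice WT parents, so loss of ATF7 cannot be told apart from parental genotype. Under natural mating, mutants were carried by mutant mothers and WT mice by WT mothers, which also enters the difference of IVF effects. The labels give an age of 4 weeks, and the study's methods a younger one. Within a group, each IVF mouse had its own recipient and each natural mating mouse its own mother, so the replicates are separate animals. For IVF, oocytes of several females were pooled before sperm was added. Whether IVF mice of a group shared a genetic mother, a father or an IVF session is not given.

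Values are log2 expression after robust multi-array averaging (RMA), on which a difference of 1 is a doubling. Array medians lay between 6.22 and 6.34, and arrays of a group correlated at 0.98 to 0.99. The labelled tissue was borne out by albumin (Alb), which averaged 13.93 ± 0.10 in Atf7-/- IVF, 13.71 ± 0.036 in Atf7-/- natural mating, 13.88 ± 0.042 in WT IVF and 13.89 ± 0.057 in WT natural mating livers (SD, n = 3 each). Of 2 Atf7 probe sets, the first read 5.34 to 5.68 in Atf7-/- IVF, 5.82 to 6.11 in Atf7-/- natural mating, 7.56 to 8.38 in WT IVF and 8.58 to 8.94 in WT natural mating livers, and so separated the genotypes. It also fell with IVF in WT, by 0.74 (adjusted p = 0.0384). The study itself reported unchanged Atf7 mRNA, and a comparable amount of ATF7 protein by western blot, in IVF and control livers. The second differed by -0.34 between Atf7-/- and WT mice of natural mating (adjusted p = 0.0758), and by -0.26 with IVF in WT (adjusted p = 0.19). Below, a gene "rose" or "fell" where limma, fitted over all probe sets, gave an adjusted p (Benjamini-Hochberg) no higher than 0.05 together with a log2 fold change of at least 0.6 in size. WT natural mating replicates 1 and 3 lay at opposite ends of their group in many of the genes below. On average the 10 members deviated from their group mean by -0.26 in replicate 1 and 0.24 in replicate 3. Values without replicate 3, and for some genes without replicate 1, are given where they differ much. In whole liver, fewer Kupffer cells and less RNA per cell cannot be told apart.

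**Figure D1:**
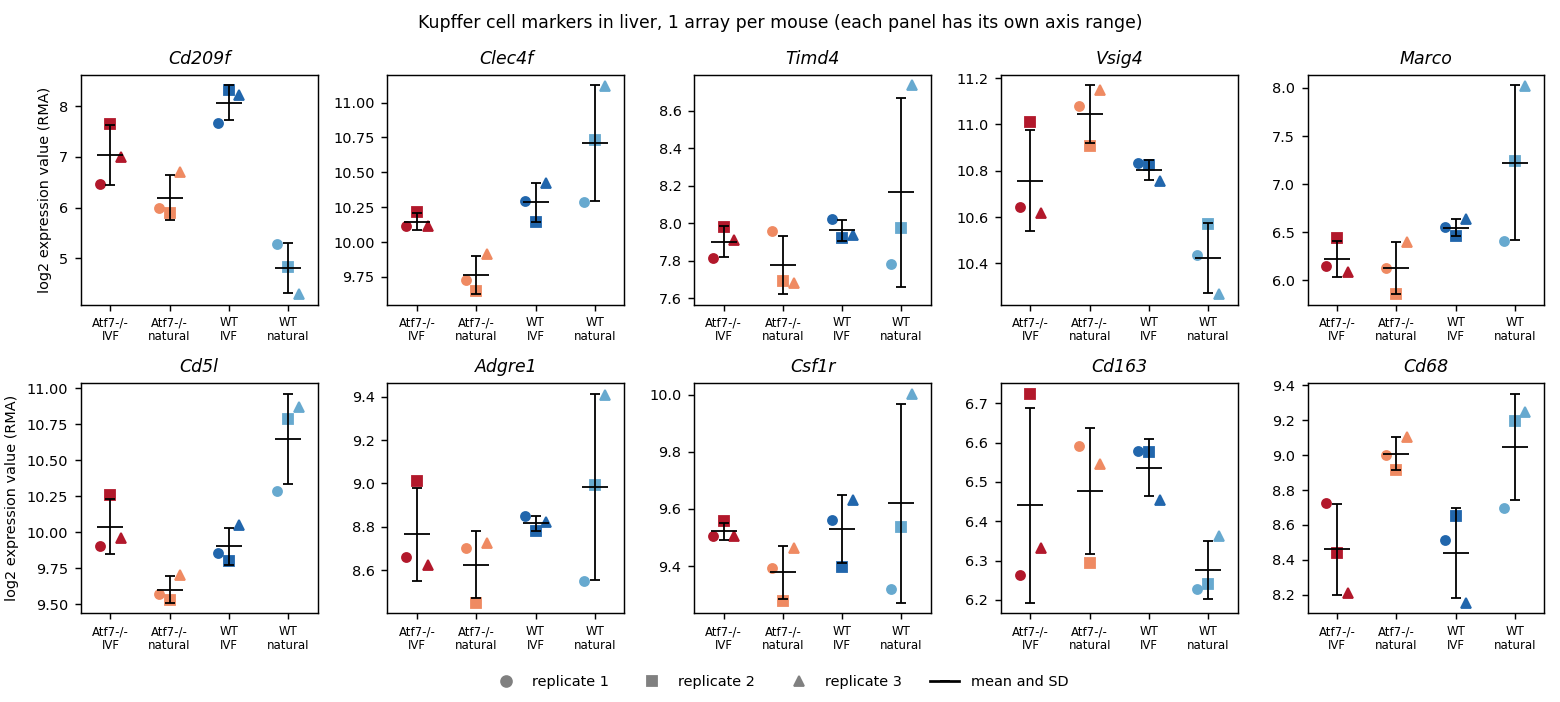
Log2 expression (RMA) of the 10 Kupffer cell markers, 1 panel per gene and 1 point per mouse, with the mean and SD of each group of 3. Cd209f is the gene whose WT IVF livers (7.67 to 8.32) and WT natural mating livers (4.30 to 5.28) lie farthest apart, and the 3 WT natural mating livers are spread widely in Marco, Timd4, Clec4f and Adgre1.

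Markers passed the test in both directions. Among WT mice, IVF raised Cd209f and lowered Cd5l. Among mice of natural mating, loss of ATF7 raised Cd209f and Vsig4 and lowered Marco, Cd5l and Clec4f. Within Atf7-/- mice, none of the 10 passed the test for IVF, and between Atf7-/- IVF and WT IVF livers none passed the test either. Timd4, Adgre1, Csf1r, Cd163 and Cd68 passed in no comparison.

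Counted together, 1 of 10 members rose with IVF in WT, against 2.85% of all probe sets, and 1 of 10 fell, against 1.67%. With loss of ATF7 under natural mating 2 of 10 rose, against 3.83%, and 3 of 10 fell, against 3.67%. With IVF in Atf7-/- mice 0 of 10 rose, against 3.27%, and 0 of 10 fell, against 3.51%, while 5 of 10 had an unadjusted p under 0.05 in the limma fit. With loss of ATF7 among IVF mice 0 of 10 rose, against 0%, and 0 of 10 fell, against 0.00575%, and 1 of 10, Cd209f, had an unadjusted p under 0.05. In the difference of IVF effects 1 of 10 was positive past the threshold, against 2.72%, and 2 of 10 negative, against 3.46%. The share of all probe sets at an unadjusted p under 0.05 is not given. Counts at that level, here and below, are therefore not read as a result about the genes.

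Among the lectins, Cd209f, a mouse relative of the dendritic cell lectin DC-SIGN that is enriched in Kupffer cells, varied most. It read 6.46, 7.66 and 6.996 in Atf7-/- IVF livers, 5.99, 5.89 and 6.71 in Atf7-/- natural mating livers, 7.67, 8.32 and 8.21 in WT IVF livers, and 5.28, 4.84 and 4.30 in WT natural mating livers. The 3 WT natural mating livers were the lowest of all 12 and the 3 WT IVF livers the highest, while both mutant groups lay between them and overlapped each other. WT natural mating replicates 2 and 3 lay below the lower quartile of their arrays (4.97 and 5.03), and the deposited values carry no call of detection, so no fold is given for Cd209f. In Atf7-/- mice the IVF difference was 0.85 (SE 0.34, 95% confidence interval 0.095 to 1.60, adjusted p = 0.14). In WT mice IVF raised Cd209f by 3.26 (SE 0.34, interval 2.51 to 4.01, adjusted p = 0.00091). The 2 IVF differences themselves differed, by -2.41 (SE 0.48, adjusted p = 0.0142), with the value in WT the larger. Without any 1 of the 12 arrays, the IVF difference in WT stayed between 3.004 and 3.498 and the difference of differences between -2.72 and -2.13, both within the threshold.

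Loss of ATF7 raised Cd209f under natural mating by 1.39 (SE 0.34, adjusted p = 0.0207). This comparison and IVF in WT share the WT natural mating livers, in which Cd209f was lowest. The call ended without Atf7-/- natural mating replicate 3 (1.13, adjusted p = 0.0823) or with WT natural mating replicate 3 left out (1.13, adjusted p = 0.0659), and likewise when replicate 2 of the WT natural mating mice was dropped (adjusted p = 0.0548). Between Atf7-/- IVF and WT IVF livers the difference was -1.03 (SE 0.34, adjusted p = 0.753), with no overlap between the groups: the highest Atf7-/- IVF liver read 7.66 and the lowest WT IVF liver 7.67.

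The promoter of Cd209f is shown because this gene had the widest range of group means of the 10, and as a base for the motif search described with Cd5l and Vsig4 below. It gives the 250 bases before the RefSeq start site on the minus strand, chr8:4105765-4106014 of GRCm38.p6, in transcript orientation.
Cd209f: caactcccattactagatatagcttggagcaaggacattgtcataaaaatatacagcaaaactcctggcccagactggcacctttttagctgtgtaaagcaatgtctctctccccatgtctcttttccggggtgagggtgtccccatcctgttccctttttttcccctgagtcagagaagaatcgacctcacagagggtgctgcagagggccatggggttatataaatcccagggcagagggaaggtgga
Every base is in lower case because the 300-base window, which also holds the first 50 bases after the start, has no match to any of the 3 motifs searched.

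The other mouse Cd209 genes, all 6 of them measured, did not pass the test in any of the 5 comparisons. At an unadjusted p under 0.05 stood 0 of 6 for IVF in WT and 1 of 6 for IVF in Atf7-/- mice. Their median difference for IVF in WT was 0.022, with a range of -0.19 to 0.12. Cd209a, the family member named as mouse DC-SIGN and found on dendritic cells, read 6.34, 5.93 and 6.14 in Atf7-/- IVF livers, 6.75, 6.79 and 6.28 in Atf7-/- natural mating livers, 6.18, 6.04 and 5.91 in WT IVF livers, and 6.25, 6.25 and 5.65 in WT natural mating livers. Its largest difference between mutant and WT livers was 0.55 under natural mating (adjusted p = 0.0796). Among the 7 related genes Cd209f alone was called. The mean of the other 6 was between 5.16 and 5.35 on every array, close to the lower quartiles of the arrays (4.91 to 5.03). Whether they are expressed in these livers cannot be told from such values, and a change in them could go unseen.

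**Figure D2:**
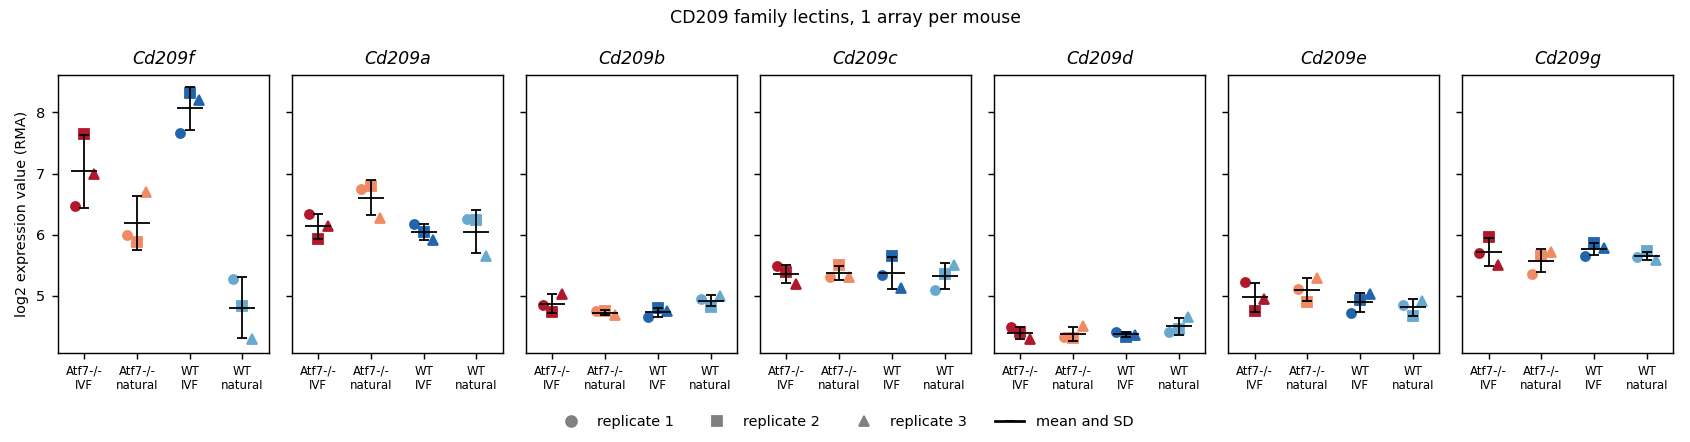
Log2 expression (RMA) of Cd209f and the 6 other Cd209 genes on 1 scale, 1 point per mouse with the mean and SD of each group of 3. Cd209f spreads between 4.30 and 8.32, and the median IVF difference of the other 6 genes in WT is 0.022.

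Clec4f, a C-type lectin used in mice as a defining Kupffer cell marker, read 10.11, 10.21 and 10.11 in Atf7-/- IVF livers, 9.73, 9.65 and 9.91 in Atf7-/- natural mating livers, 10.29, 10.14 and 10.42 in WT IVF livers, and 10.29, 10.73 and 11.12 in WT natural mating livers. Atf7-/- natural mating livers were the lowest group and overlapped no other. Clec4f fell with loss of ATF7 under natural mating by 0.95 (SE 0.17, adjusted p = 0.00466), and it did so without any 1 of the 12 arrays. IVF gave a difference of 0.38 in Atf7-/- mice (SE 0.17, adjusted p = 0.192), with every IVF liver above every natural mating liver. In WT mice it gave -0.43 (SE 0.17, adjusted p = 0.16), and the groups overlapped. The difference between these IVF effects was 0.81 (SE 0.25, adjusted p = 0.0757). Without WT natural mating replicate 1 the IVF difference in WT was -0.64 (adjusted p = 0.0299) and the difference of effects 1.02 (adjusted p = 0.0137), both within the threshold. Without replicate 3 of the same group they were -0.22 (adjusted p = 0.385) and 0.61 (adjusted p = 0.0855). Of 7 other Clec4 lectins of myeloid cells, Clec4a3 rose with loss of ATF7 under natural mating, by 0.79 (adjusted p = 0.00418), the direction opposite to Clec4f. The other 6 of that list did not pass there. The median of the 7 was between 4.81 and 5.26 on every array, close to the lower quartiles of the arrays (4.91 to 5.03). A change in the dimmer genes of that list could therefore go unseen. Clec4g of the sinusoidal endothelium is not among the 7 and is given below.

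Cd5l encodes a secreted protein of the scavenger receptor family, also called AIM, that macrophages release and that supports their survival. It read 9.90, 10.26 and 9.96 in Atf7-/- IVF livers, 9.57, 9.53 and 9.71 in Atf7-/- natural mating livers, 9.86, 9.80 and 10.05 in WT IVF livers, and 10.29, 10.78 and 10.87 in WT natural mating livers. WT natural mating livers were highest and Atf7-/- natural mating livers lowest, and the 2 IVF groups overlapped each other between them. Cd5l fell with loss of ATF7 under natural mating by 1.04 (SE 0.15, adjusted p = 0.00144). In Atf7-/- mice the IVF livers were all above the natural mating livers, with a difference of 0.44 (SE 0.15, adjusted p = 0.093). In WT mice Cd5l fell with IVF by 0.74 (SE 0.15, adjusted p = 0.0164). The IVF effects in the genotypes differed by 1.18 (SE 0.22, adjusted p = 0.01). The loss of ATF7 and the difference of effects held without any 1 array, while the call for IVF in WT ended at an adjusted p of 0.0548 without WT IVF replicate 1, of 0.0589 without WT IVF replicate 2, and of 0.0595 when replicate 2 of the WT natural mating mice was left out. It also ended when only the WT arrays were fitted (adjusted p = 0.0631).

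Vsig4, the complement receptor CRIg that binds C3b-coated particles, moved the other way. It read 10.64, 11.01 and 10.62 in Atf7-/- IVF livers, 11.08, 10.91 and 11.15 in Atf7-/- natural mating livers, 10.83, 10.82 and 10.76 in WT IVF livers, and 10.43, 10.57 and 10.27 in WT natural mating livers. WT natural mating livers were the lowest and overlapped no other group. Vsig4 rose with loss of ATF7 under natural mating by 0.62 (SE 0.12, adjusted p = 0.00677), or 1.54-fold. The call ended without Atf7-/- natural mating replicate 3 or WT natural mating replicate 3, where the difference was 0.57 and 0.54 and so under the size asked for. With IVF, Vsig4 differed by -0.29 in Atf7-/- mice (SE 0.12, adjusted p = 0.163), where the groups overlapped, and by 0.38 in WT mice (SE 0.12, adjusted p = 0.0825), where they did not. These effects differed by -0.67 (SE 0.17, adjusted p = 0.0423), a call that ended without 9 of the 12 arrays taken 1 at a time (adjusted p 0.0689 to 0.101).

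Promoters of Cd5l and Vsig4 are shown because these genes moved in opposite directions with loss of ATF7, and that of Cd68, a lysosomal glycoprotein of macrophages, because among the 8 members with a RefSeq promoter window it alone held the cAMP response element half-site that factors of the ATF family bind. Each line is the 250 bases before the start site in GRCm38.p6, in transcript orientation, with motif matches in capitals: Cd5l lies on the plus strand at chr3:87357631-87357880, Vsig4 on the minus strand at chrX:96293439-96293688 and Cd68 on the minus strand at chr11:69666171-69666420.
Cd5l: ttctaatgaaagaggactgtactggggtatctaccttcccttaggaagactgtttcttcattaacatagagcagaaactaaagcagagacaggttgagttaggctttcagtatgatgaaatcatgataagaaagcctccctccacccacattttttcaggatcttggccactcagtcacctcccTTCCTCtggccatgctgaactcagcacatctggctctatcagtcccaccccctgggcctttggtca
Vsig4: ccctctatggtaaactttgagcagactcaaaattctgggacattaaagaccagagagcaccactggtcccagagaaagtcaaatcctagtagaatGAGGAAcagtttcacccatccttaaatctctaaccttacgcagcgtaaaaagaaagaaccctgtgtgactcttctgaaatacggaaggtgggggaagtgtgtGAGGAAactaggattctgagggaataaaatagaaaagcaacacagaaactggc
Cd68: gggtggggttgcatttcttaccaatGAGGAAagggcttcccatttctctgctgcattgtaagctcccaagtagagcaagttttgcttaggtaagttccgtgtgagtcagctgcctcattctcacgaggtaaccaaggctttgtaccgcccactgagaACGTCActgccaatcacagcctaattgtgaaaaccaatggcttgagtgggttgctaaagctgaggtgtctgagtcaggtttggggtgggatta
Windows of 300 bases were searched on both strands for the core of the PU.1 site, GAGGAA, for the cAMP response element half-site, TGACGT, and for the E-box CACGTG. PU.1 is the lineage factor of macrophages. Its core began 66 bases before the Cd5l start on the minus strand, 155 and 53 bases before the Vsig4 start, and 225 bases before the Cd68 start, and it was held by 4 of 8 members (Marco is the other) against 28.3% of 32851 promoter windows. The half-site, 93 bases before the Cd68 start on the minus strand, was held by 1 of 8 members against 7.51% of windows, and the E-box by 0 of 8 against 7.15%. A match is a description of these letters alone.

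Marco, a scavenger receptor with a collagen-like domain that binds bacteria, read 6.15, 6.44 and 6.09 in Atf7-/- IVF livers, 6.13, 5.86 and 6.39 in Atf7-/- natural mating livers, 6.55, 6.46 and 6.63 in WT IVF livers, and 6.41, 7.24 and 8.02 in WT natural mating livers. The 3 WT natural mating livers spanned 1.61 on the log2 scale, the widest range of any member in any group. Marco fell with loss of ATF7 under natural mating by 1.10 (SE 0.31, adjusted p = 0.0391). The call ended without 10 of the 12 arrays taken 1 at a time (adjusted p 0.0525 to 0.129), among them WT natural mating replicate 3, without which the difference was -0.70. IVF in WT gave -0.68 (SE 0.31, adjusted p = 0.208), with overlapping groups, and it moved with which WT natural mating array was left out: -1.08 without replicate 1 (adjusted p = 0.0256) and -0.28 without replicate 3 (adjusted p = 0.517). Atf7-/- IVF livers were all below WT IVF livers, by 0.32 on the log2 scale on average (SE 0.31, adjusted p = 0.915).

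Cd163, the scavenger receptor for haemoglobin bound to haptoglobin, read 6.26, 6.72 and 6.33 in Atf7-/- IVF livers, 6.59, 6.29 and 6.55 in Atf7-/- natural mating livers, 6.58, 6.58 and 6.45 in WT IVF livers, and 6.23, 6.24 and 6.36 in WT natural mating livers. WT IVF livers did not overlap WT natural mating livers, with a difference of 0.26 (SE 0.13, adjusted p = 0.237), and the groups overlapped in the other comparisons. Cd68 read 8.73, 8.44 and 8.21 in Atf7-/- IVF livers, 9.003, 8.91 and 9.11 in Atf7-/- natural mating livers, 8.51, 8.65 and 8.15 in WT IVF livers, and 8.70, 9.20 and 9.25 in WT natural mating livers. In both genotypes every IVF liver was below every natural mating liver: the IVF difference was -0.55 in Atf7-/- mice (SE 0.18, adjusted p = 0.074) and -0.61 in WT mice (SE 0.18, adjusted p = 0.063). These Cd68 effects differed by 0.061 with a 95% interval of -0.51 to 0.63, and loss of ATF7 under natural mating gave -0.040 (interval -0.44 to 0.36). Testing fewer probe sets put Cd68 past the threshold for IVF in WT, at an adjusted p of 0.043 when dim probe sets were left out.

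The remaining 3 members are receptors that define resident macrophages. Timd4, a phosphatidylserine receptor for apoptotic cells, read 7.81, 7.98 and 7.91 in Atf7-/- IVF livers, 7.96, 7.69 and 7.68 in Atf7-/- natural mating livers, 8.03, 7.92 and 7.94 in WT IVF livers, and 7.78, 7.97 and 8.74 in WT natural mating livers. Adgre1, an adhesion G protein-coupled receptor long used as a macrophage surface antigen in mice, read 8.66, 9.01 and 8.62 in Atf7-/- IVF livers, 8.70, 8.45 and 8.72 in Atf7-/- natural mating livers, 8.85, 8.78 and 8.82 in WT IVF livers, and 8.55, 8.99 and 9.41 in WT natural mating livers. Csf1r, the receptor for colony-stimulating factor 1 and interleukin 34, read 9.50, 9.56 and 9.51 in Atf7-/- IVF livers, 9.39, 9.28 and 9.46 in Atf7-/- natural mating livers, 9.56, 9.40 and 9.63 in WT IVF livers, and 9.32, 9.54 and 10.004 in WT natural mating livers. WT natural mating replicate 3 was the highest of the 12 arrays for each of these genes, and within WT the groups overlapped. For IVF in WT the differences were -0.20 for Timd4 (interval -0.64 to 0.23), -0.17 for Adgre1 (interval -0.58 to 0.24) and -0.091 for Csf1r (interval -0.42 to 0.24). For loss of ATF7 under natural mating they were -0.39 for Timd4 (interval -0.83 to 0.050), -0.36 for Adgre1 (interval -0.77 to 0.054) and -0.24 for Csf1r (interval -0.57 to 0.085). Without WT natural mating replicate 3 the differences for IVF in WT were 0.083, 0.043 and 0.10, in the order Timd4, Adgre1 and Csf1r. Those for loss of ATF7 under natural mating were then -0.10, -0.15 and -0.050, so the IVF differences changed sign and those for loss of ATF7 shrank. Over all fits that left out 1 array, the differences for loss of ATF7 reached -0.58, -0.58 and -0.39 in the same order. All stayed under the size asked for, and the lowest adjusted p for Adgre1 was 0.0436.

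The median difference of the 10 members was -0.19 for IVF in WT, beside -0.036 over all probe sets, and -0.30 for loss of ATF7 under natural mating, beside -0.019. It was 0.13 for IVF in Atf7-/- mice, beside 0.0057, and -0.056 for loss of ATF7 among IVF mice, beside 0.0073. Negative values were held by 7 of 10 members for IVF in WT and by 7 of 10 for loss of ATF7 under natural mating, comparisons that share the WT natural mating livers. Groups did not overlap for 3 members with higher and 2 with lower IVF values in WT, against 14% and 15.4% of all probe sets. With loss of ATF7 under natural mating they did not overlap for 2 higher and 3 lower members, against 15.5% and 16.3%. For IVF in Atf7-/- mice this held for 3 higher and 1 lower, against 16% and 16.2%, and for loss of ATF7 among IVF mice for 0 higher and 2 lower, against 5.78% and 5.09%.

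**Figure D3:**
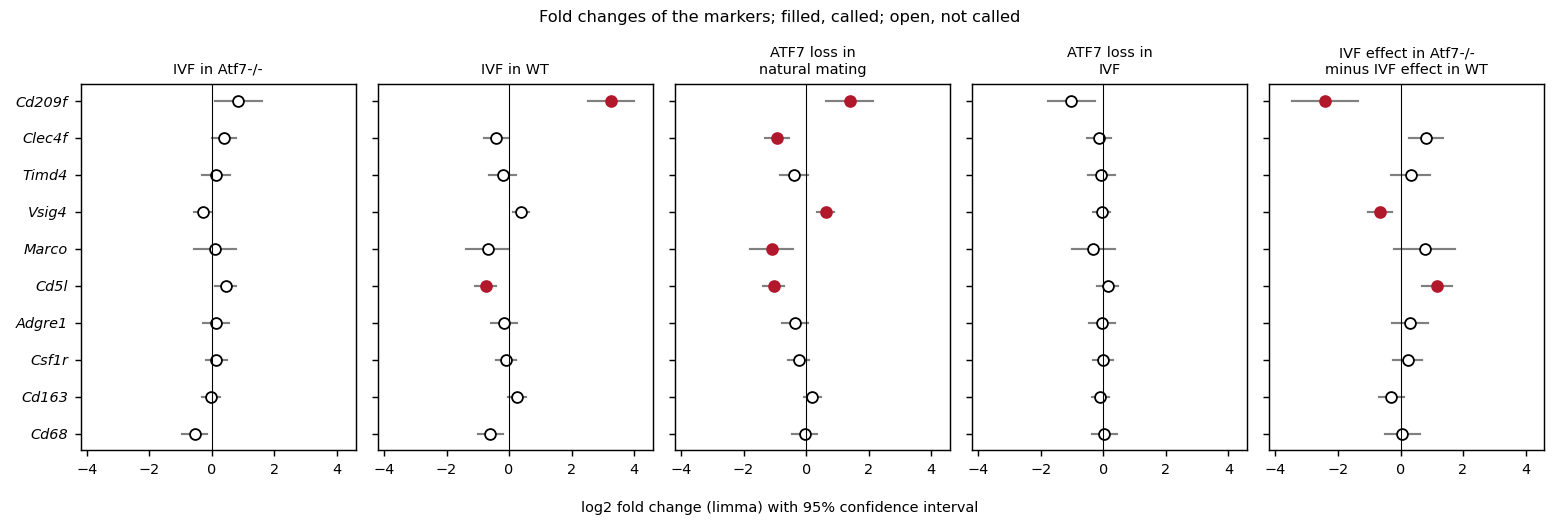
Log2 fold change of each member with its 95% confidence interval in each of the 5 comparisons, from the limma fit over all probe sets, with filled points for those that passed the test. Cd209f reaches 3.26 for IVF in WT and 1.39 for loss of ATF7 under natural mating, while Cd5l lies at -0.74 and -1.04.

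Several members also went up and down together between mice of the same group. WT natural mating replicate 3 was the highest of its group for 8 of the 10 genes and the lowest for Cd209f and Vsig4, and replicate 1 was the lowest of that group for 8. In Atf7-/- IVF mice replicate 2 was the highest for 9 of 10, and in Atf7-/- natural mating mice replicate 2 was the lowest for 9 of 10. The median SD of the members was 0.202 in Atf7-/- IVF, 0.145 in Atf7-/- natural mating and 0.104 in WT IVF livers, beside 0.155, 0.119 and 0.131 over all probe sets in the same groups. In WT natural mating livers it was 0.38, beside 0.159. The members thus varied less than the median probe set in WT IVF livers, and more in the other groups.

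**Figure D4:**
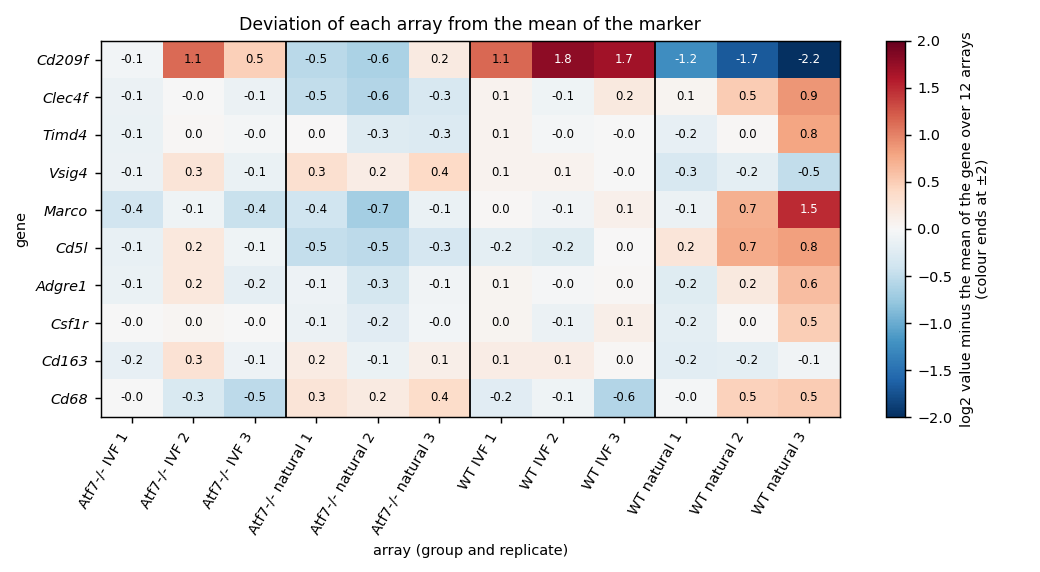
Log2 value of each member (rows) in each of the 12 mice (columns, by group and replicate) minus the mean of that gene over all 12 arrays, with red above and blue below that mean. WT natural mating replicate 3 reads 8.02 for Marco and 4.30 for Cd209f, the highest and the lowest value of the 12 arrays for these genes.

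Other macrophage genes were read beside the 10. Of 20 measured genes shared by macrophages of many tissues, 6 fell with loss of ATF7 under natural mating, 0 rose, against 3.67% and 3.83% of all probe sets, and the median difference was -0.33. They were the pore-forming Mpeg1 (-1.27, adjusted p = 0.00306), the complement subunit C1qa (-0.92, adjusted p = 0.00314), the transcription factor Irf8 (-0.85, adjusted p = 0.00362), the leukocyte phosphatase Ptprc (-0.84, adjusted p = 0.00994), the calcium-binding Aif1 (-0.83, adjusted p = 0.0152) and the protease Ctss (-0.76, adjusted p = 0.0153). Without WT natural mating replicate 3 the count was 4, with Aif1 (-0.55) and Ctss (-0.56) under the size asked for, and without replicate 1 of that group it was 8. With IVF in WT mice Mpeg1 alone of the 20 fell, by 1.07 (adjusted p = 0.015), and 0 rose. That count was 0 without WT IVF replicate 2 (Mpeg1 adjusted p = 0.0548), 0 when replicate 2 of the WT natural mating mice was left out (0.0545), and 4 when their replicate 1 was. The mean level of the 20 ran between 8.24 and 8.40 in Atf7-/- IVF livers, 8.25 and 8.29 in Atf7-/- natural mating livers, 8.30 and 8.35 in WT IVF livers, and 8.28 and 8.90 in WT natural mating livers. It was 8.28, 8.67 and 8.90 in WT natural mating replicates 1, 2 and 3, so replicate 1 of that group lay within the range of the others.

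Mpeg1 read 8.55, 8.66 and 8.78 in Atf7-/- IVF livers, 8.28, 8.48 and 8.33 in Atf7-/- natural mating livers, 8.66, 8.39 and 8.64 in WT IVF livers, and 9.003, 9.88 and 10.02 in WT natural mating livers. All 3 WT natural mating livers were above the other 9. For Mpeg1 the IVF effect in Atf7-/- mice exceeded that in WT mice by 1.38 (adjusted p = 0.0224), and the same held for Ptprc (1.02, adjusted p = 0.0346), C1qa (0.86, adjusted p = 0.0401) and Irf8 (0.83, adjusted p = 0.0394), the direction of Cd5l. Leaving out 1 array at a time, C1qa was called in 1 of 12 fits, Irf8 in 2, Ptprc in 4 and Mpeg1 in 7. In Atf7-/- mice IVF raised Ptprc, by 0.80 (adjusted p = 0.0136; 0.0543 without Atf7-/- IVF replicate 3 and 0.0506 without Atf7-/- natural mating replicate 3), and lowered Fcer1g, the common signalling chain of Fc receptors, by 1.10 (adjusted p = 0.00872).

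Of 17 further genes of Kupffer cell identity, 0 rose or fell with loss of ATF7 under natural mating, where 5 had an unadjusted p under 0.05 in the limma fit. Hmox1, the haem oxygenase that degrades haem from red blood cells, fell with IVF in Atf7-/- mice by 0.74 (adjusted p = 0.0057) and in WT mice by 0.77 (adjusted p = 0.00935). Nr1h3, the liver X receptor alpha that shapes Kupffer cell identity and is also made by hepatocytes, fell with IVF in Atf7-/- mice by 0.69 (adjusted p = 0.00116). The ferritin light chain Ftl1 also fell with IVF, by 1.35 in Atf7-/- mice (adjusted p = 0.000685) and by 1.14 in WT mice (adjusted p = 0.00366), and it read 8.34 to 8.85 in Atf7-/- IVF livers, 9.94 to 10.19 in Atf7-/- natural mating livers, 8.48 to 8.90 in WT IVF livers and 9.68 to 10.06 in WT natural mating livers. Of the 9 measured genes of haem and iron recycling, a list that also holds Cd163, 3 fell with IVF in Atf7-/- mice, against 3.51% of all probe sets. In WT mice 2 fell, against 1.67%, and 0 rose in either genotype. The third in Atf7-/- mice was the biliverdin reductase Blvrb (-0.87, adjusted p = 0.0195), which gave 0.12 in WT mice (adjusted p = 0.762). Its call in Atf7-/- mice held in 8 of 12 fits that left out 1 array. The iron exporter Slc40a1 gave 0.47 in Atf7-/- mice (adjusted p = 0.0251), under the size asked for, and the ferritin heavy chain Fth1 gave -0.035 (adjusted p = 0.861). A list of Csf1r ligands and other signals to Kupffer cells had 11 measured genes. Of these 1 rose with IVF in WT, against 2.85% of all probe sets. It was Pros1, one of the other signals (0.81, adjusted p = 0.00133). The ligands Csf1 and Il34 gave -0.29 (adjusted p = 0.279) and -0.059 (adjusted p = 0.808) there. For loss of ATF7 under natural mating 0 of the 11 were called, and 3 had an unadjusted p under 0.05.

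Markers of other liver cells were listed to show what moved beside the Kupffer cell genes. Clec4g, a lectin of the sinusoidal endothelium, read 10.63, 11.24 and 10.75 in Atf7-/- IVF livers, 11.21, 11.03 and 11.45 in Atf7-/- natural mating livers, 10.92, 11.14 and 10.88 in WT IVF livers, and 10.39, 10.22 and 10.08 in WT natural mating livers. Clec4g has 2 probe sets that name it alone, and the one with the higher mean over the 12 arrays is read here. The other is not given. On the probe set read, WT natural mating livers were the lowest and overlapped no other group, as for Cd209f and Vsig4. Clec4g rose with IVF in WT by 0.75 (adjusted p = 0.0225) and with loss of ATF7 under natural mating by 0.9998 (adjusted p = 0.00283), and its IVF effects differed by -1.10 (adjusted p = 0.019). The call for IVF in WT held in 7 of 12 fits that left out 1 array, that for loss of ATF7 in 12 and that for the difference in 11. Of the 13 sinusoidal endothelial genes, 1 rose with IVF in WT, against 2.85% of all probe sets, and 2 rose with loss of ATF7 under natural mating, against 3.83%, and 0 fell in either. Of 12 stellate cell genes 1 and 2 rose in the same comparisons, and 0 fell. Of 10 dendritic cell genes Clec9a fell in both, by 0.64 (adjusted p = 0.0104) and 0.70 (adjusted p = 0.00298). Of 11 hepatocyte genes, the gluconeogenic enzyme Pck1 fell with IVF in WT, by 0.77 (adjusted p = 0.0247). The transcription factor Hnf4a of that list rose with loss of ATF7, by 0.68 (adjusted p = 0.0039). These calls held in 8 of 12 fits that left out 1 array for Pck1 and in 11 for Hnf4a. Of 5 cholangiocyte genes, the keratin Krt19 rose with loss of ATF7, by 0.60 (adjusted p = 0.00123). The part of these cells in the differences of the Kupffer cell markers was not tested.

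The lowest and highest mean level of the endothelial list was 9.27 and 9.33 in Atf7-/- IVF, 9.32 and 9.58 in Atf7-/- natural mating, 9.13 and 9.45 in WT IVF, and 9.01 and 9.30 in WT natural mating livers. For the dendritic list it was 6.45 and 6.58 in Atf7-/- IVF, 6.49 and 6.67 in Atf7-/- natural mating, 6.35 and 6.66 in WT IVF, and 6.58 and 7.20 in WT natural mating livers. By mean level, WT natural mating replicate 3, which was highest of its group for 8 members, was thus also the highest for the dendritic list. It was the lowest for the endothelial and the stellate list (8.26). By median level its dendritic list was instead the lowest of its group, at 6.33 against 6.37 in replicate 1 and 6.54 in replicate 2.

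**Figure D5:**
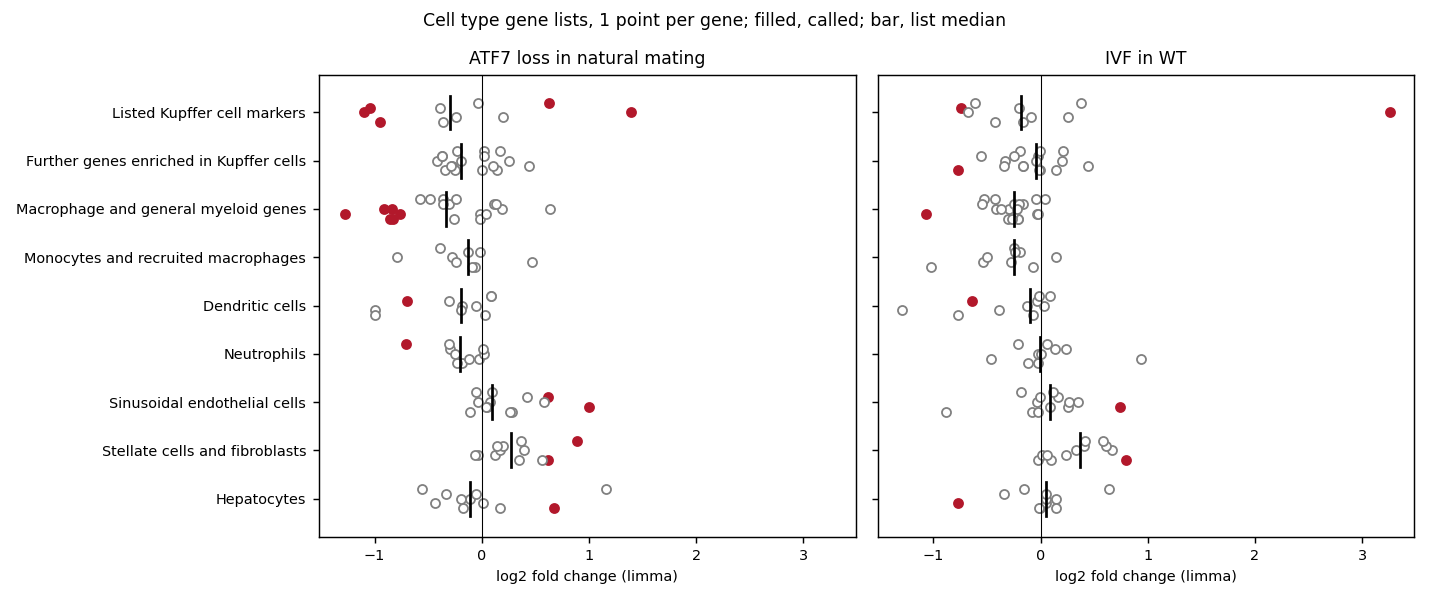
Log2 fold changes of the genes of each cell-type list, 1 point per gene, filled where it passed the test, with a bar at the list's median, for loss of ATF7 under natural mating (left) and IVF in WT (right). The macrophage list has medians of -0.33 and -0.25, the Kupffer cell markers -0.30 and -0.19, and the stellate list 0.27 and 0.37.

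The genes whose values over the 12 arrays were most like those of the members were found by Pearson correlation over all probe sets that name 1 gene, and carry no test because they were picked as the highest. Nearest to Cd209f were Slc35a3 (r = 0.977, Spearman's rho 0.916), Lrrc40 (r = 0.976, rho 0.965) and Ifngr1, a chain of the interferon gamma receptor (r = 0.969, rho 0.972). Nearest to Clec4f were Eif4e3 (r = 0.969, rho 0.895), Nckap1l (r = 0.965, rho 0.832) and C1qa (r = 0.965, rho 0.881), of which C1qa is a macrophage gene. Nearest to the mean of the 10 scaled members was Mettl21e (r = 0.936, rho 0.888), followed by C2cd5 (r = 0.903, rho 0.874). Mettl21e read 3.66 to 4.12 over the 12 arrays, below the lower quartile of every array (4.91 to 5.03). Whether it is expressed in these livers cannot be told from such values. The 12 arrays share 4 groups, so group differences and differences between mice both enter these values.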

How the data were processed

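The data are 12 liver arrays of male mice, in 4 groups of 3. The authors normalised the scans by RMA in affy and deposited log2 values per probe set, which were used unchanged. Versions, the genome build and any filter: not given in the sources used here. Genes were named from probe sets with 1 symbol in the platform annotation. Symbols were checked by Entrez identifier against RefSeq (GRCm38.p6): 21553 of 21640 were found and 0 changed. RefSeq promoter windows came from the same build and were held for 8 of 10 members (not Adgre1 and Csf1r).

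The linear model (limma 3.58.1, R 4.3.3) had 4 group means, 8 residual degrees of freedom and empirical Bayes variances. Adjusted p-values cover all 34760 probe sets. The 5 comparisons were IVF in WT, IVF in Atf7-/-, loss of ATF7 in each mode of conception, and the IVF effect in Atf7-/- minus that in WT. The fit was first tested on simulated data. The named genes were the members, the called genes of fixed lists of cell types and pathways, and the genes most correlated with the members. Members and lists were chosen with earlier results of these data known. The number of arrays limits the precision.

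Alternatives were fits of only the compared groups, a replicate block, robust variances, array weights, median centring, further quantile normalization, leaving out dim probe sets, only named probe sets, gene means, other fold thresholds and leaving out each array. Leaving out arrays for the genes of the lists was added after the data were seen.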

Additional observations from a re-analysis of the deposited data

Results flagged for a closer look

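Of the 10 members, 3 had IVF effects that differed between the genotypes in the interaction term of the limma fit. Positive past the threshold was 1 of 10, against 2.72% of all probe sets, and negative 2 of 10, against 3.46%. For Cd209f the effect in Atf7-/- mice (0.85) minus that in WT mice (3.26) was -2.41 (adjusted p = 0.0142). For Vsig4 the effect was -0.29 in Atf7-/- mice and 0.38 in WT mice, a difference of -0.67 (adjusted p = 0.0423). That call held in only 3 of 12 fits that left out 1 array. For Cd5l it was 0.44 in Atf7-/- mice and -0.74 in WT mice, a difference of 1.18 (adjusted p = 0.01). All 3 differences include the WT natural mating livers, in which the members varied most between mice.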

How the results depend on the processing

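The calls of Cd209f for IVF in WT and in the difference of IVF effects, of Cd5l for loss of ATF7 under natural mating and in the difference of effects, and of Clec4f for loss of ATF7 under natural mating held without each single array. The replicate numbers did not pair the mice: same-numbered arrays correlated at -0.124 to 0.239 in their deviations, and 5 of 12 arrays correlated best with their own number. With the number as a replicate block, 1 member in place of 2 was negative in the difference of effects, since Vsig4 (-0.67) had an adjusted p of 0.0598.

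Members that fell with IVF in WT numbered 1. They were 0 with only the compared groups or a log2 fold change of at least 1, and 2 (Cd68 added) with dim probe sets left out, with only probe sets naming 1 gene or with gene means; leaving out 1 array gave 0 to 4. In Atf7-/- mice 0 fell with IVF, against 1 (Cd68, -0.62) with array weights and 0 to 1 without 1 array. Members that rose with loss of ATF7 under natural mating numbered 2, and 1 with array weights, further quantile normalization or a log2 fold change of at least 1, and 0 to 2 without 1 array. Those that fell numbered 3, and 2 with only the compared groups (Marco, adjusted p = 0.133) or a log2 fold change of at least 1, and 2 to 3 without 1 array. In the difference of effects, 1 was positive, and 2 (Clec4f added) with only probe sets naming 1 gene or gene means, and 1 to 3 without 1 array; 2 were negative, and 1 with further quantile normalization or a log2 fold change of at least 1, and 1 to 2 without 1 array. The cause was not tested.

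Signs turned only for values that passed no test. Cd68 gave 0.0055 for loss of ATF7 under natural mating with median centring, -0.063 and -0.013 for loss of ATF7 among IVF mice with array weights and median centring, and -0.058 and -0.019 in the difference of effects with the same settings. Csf1r gave 0.043 for loss of ATF7 among IVF mice with further quantile normalization. Without 1 array, IVF in WT ranged over -0.39 to 0.083 for Timd4, -0.39 to 0.043 for Adgre1 and -0.24 to 0.10 for Csf1r. IVF in Atf7-/- mice ranged over -0.037 to 0.23 for Marco and -0.18 to 0.051 for Cd163. Loss of ATF7 ranged over -0.21 to 0.061 for Cd68 under natural mating, and among IVF mice over -0.17 to 0.022 for Vsig4, -0.17 to 0.018 for Adgre1, -0.073 to 0.044 for Csf1r and -0.12 to 0.15 for Cd68. The difference of effects for Cd68 ranged over -0.083 to 0.24.

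Over all probe sets, IVF in WT gave 989 higher and 582 lower calls. Median centring, which moved the median difference to 0.034 in place of -0.036, gave 1334 and 432, and only the compared groups 799 and 347. The difference of effects gave 945 positive and 1203 negative calls, and 711 and 1628 with median centring. IVF in Atf7-/- mice gave 1136 and 1220, and loss of ATF7 under natural mating 1332 and 1274. With only probe sets naming 1 gene the counts were 815 and 271, 467 and 1077, 650 and 878, and 967 and 527 in the same order; with gene means 722 and 224, 358 and 1002, 464 and 817, and 883 and 387. With a log2 fold change of at least 1 they were 237 and 199, 504 and 482, 341 and 365, and 386 and 524; with no minimum, 1783 and 1214, 1079 and 1441, 2127 and 2371, and 2527 and 2240. Without 1 array, IVF in WT gave 619 to 1100 and 364 to 782 calls, and the difference of effects 624 to 1141 and 819 to 1466. For loss of ATF7 among IVF mice, 0 rose and 2 fell, and with any alternative 0 to 2 and 0 to 6.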

Other observations

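Of 10 measured neutrophil genes, S100a9 and Ngp, both granule or cytosolic proteins of neutrophils, rose with IVF in Atf7-/- mice by 0.78 (adjusted p = 0.0241) and 0.99 (adjusted p = 0.0395), against 3.27% of all probe sets that rose, and 0 fell. Leaving out 1 array at a time, S100a9 was called in 8 of 12 fits and Ngp in 5. Ngp read 6.25, 5.62 and 6.28 in Atf7-/- IVF livers and 5.02, 5.05 and 5.12 in Atf7-/- natural mating livers. In WT it read 6.24, 5.85 and 6.28 in IVF livers and 4.89, 4.75 and 5.91 in natural mating livers, where replicate 3 stood within the IVF range. The B cell gene Ms4a1 rose with IVF in both genotypes, by 0.71 in Atf7-/- mice (adjusted p = 0.032) and 0.93 in WT mice (adjusted p = 0.0161), each in 8 of 12 such fits.

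Of 7 measured genes of cell division, the mitotic kinase Bub1 rose with IVF in WT mice, by 1.84 (adjusted p = 0.0304; called in 7 of 12 fits that left out 1 array), and 6 of the 7 had an unadjusted p under 0.05 there. Bub1 read 5.22, 7.27 and 5.54 in Atf7-/- IVF livers, 5.67, 5.74 and 6.39 in Atf7-/- natural mating livers, 6.77, 6.90 and 6.74 in WT IVF livers, and 4.96, 5.44 and 4.51 in WT natural mating livers. The WT IVF livers lay above all others but Atf7-/- IVF replicate 2, which was also the highest of its group for 9 of the 10 Kupffer cell markers. In contrast, WT natural mating replicate 3, the highest of its group for 8 of the 10 markers, had the lowest Bub1 value of the 12 arrays. In WT natural mating replicates 1 and 3, Bub1 lay below the lower quartile of the array (5.01 and 5.03). The size of its rise with IVF in WT is therefore uncertain.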
